A study of Mus musculus with 12 samples.

Results

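The prostates of TRAMP mice were set against those of wild type mice at 24 weeks of age, across all genes of the deposited expression tables. The members were chosen by their labels alone: 2 libraries of TRAMP prostate (replicates 0 and 2) and 2 libraries of wild type prostate (replicates 0 and 1), 4 of the 12 libraries of the series. TRAMP mice were of strain C57BL/6-Tg(TRAMP)8247Ng/J and wild type mice of strain C57BL/6, and both groups ate the control diet AIN93M. The labels give the ventral and dorsolateral prostate as the tissue, from which RNA was taken with an AllPrep kit after snap freezing. A library of a TRAMP tumor was left out, as were the libraries of mice fed phenethyl isothiocyanate and those of mice of 16 weeks. These 8 libraries entered the filter on low values and the fit, where those with a replicate added to the estimate of the spread. The tumor and the wild type library of 16 weeks had no replicate and gave no spread of their own. The libraries of 16 weeks also entered a comparison of the ages. How many animals made up a library is not stated, and each p-value therefore reflects the spread from library to library, which may be technical.

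The TRAMP transgene carries the early region of SV40 under a rat probasin promoter, so that the viral T antigens are made in prostate epithelium once androgen signalling is active. Large T antigen binds the pocket proteins of the Rb family, which otherwise hold the E2F transcription factors in check, and it binds p53. E2F factors drive the genes that copy DNA, and a complex that reads the cell cycle homology region (CHR) drives genes of mitosis. The prostate epithelium consists of luminal cells, which secrete large amounts of a few proteins into the seminal fluid under the control of androgens, and of basal cells beneath them, with smooth muscle around the glands. RNA of the transgene itself was not analysed here, so the genotypes rest on the labels alone.

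The values were FPKM, fragment counts scaled to the length of the gene and to the depth of the library, for 24421 genes. Of these, 13375 averaged at least 0.5 FPKM over the 12 libraries and were tested with limma on log2(FPKM + 1). Most of the 12 are TRAMP libraries, so a gene low in wild type passed this filter more easily than a gene low in TRAMP. Differences are given as TRAMP minus wild type on that log2 scale with the standard error after the ± sign, for 2 libraries each, and a gene was called at an adjusted p under 0.05. In all, 6014 genes (45.0% of those tested) were called, 3071 of them higher in TRAMP prostates (23.0%) and 2943 lower (22.0%), and the median log2 difference over all genes tested was -0.0007. Of the called genes 51.1% were higher. That share was 66.6% when the scaling left out the 50 most abundant genes, and 40.5% after a correction for GC content. In each called gene both TRAMP libraries lay above, or both lay below, the 2 wild type libraries; that order, called or not, held in 36.7% of the genes tested for higher values and in 36.5% for lower values. The steps between low values put the relative depth at 1 and 0.949 in the TRAMP libraries and at 0.681 and 0.694 in the wild type libraries, and depth in reads is unknown. The difference of the TRAMP effect between 24 and 16 weeks was called in 49 genes (0.366% of those tested), but wild type prostate of 16 weeks is 1 library, and age cannot be told apart from that library. The correlation of log2 values was 0.9945 between the TRAMP libraries, 0.9956 between the wild type libraries and 0.9707 to 0.9760 between the groups.

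Promoters of some genes that copy DNA, genes of mitosis and interferon-driven genes are shown first, because these classes held many of the genes that rose most. Each promoter printed for these classes holds its motif, so the examples do not show how common a motif is. Genes with larger rises, such as Oasl2 and Irf7, are not printed. Sequences are those of RefSeq on build GRCm38.p6, from 250 bases before to 50 bases after the start of the gene, 5′ to 3′ on the strand of the gene. In the promoters of Mcm3 (chr1:20820263-20820562, minus strand), Mcm6 (chr1:128359656-128359955, minus strand), which encode subunits of the replicative helicase, and Hells (chr19:38930740-38931039, plus strand), which encodes a chromatin remodeller, the capitals mark E2F sites, searched as TTTGGCGC, TTTCCCGC, TTTCGCGC and TTTGCCGC on both strands.
Mcm3: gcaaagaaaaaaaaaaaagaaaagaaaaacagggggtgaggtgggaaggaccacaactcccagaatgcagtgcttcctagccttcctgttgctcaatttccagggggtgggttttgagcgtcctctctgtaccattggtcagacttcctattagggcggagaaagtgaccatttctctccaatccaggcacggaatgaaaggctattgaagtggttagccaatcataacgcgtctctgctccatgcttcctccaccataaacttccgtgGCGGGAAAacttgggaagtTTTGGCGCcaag
Mcm6: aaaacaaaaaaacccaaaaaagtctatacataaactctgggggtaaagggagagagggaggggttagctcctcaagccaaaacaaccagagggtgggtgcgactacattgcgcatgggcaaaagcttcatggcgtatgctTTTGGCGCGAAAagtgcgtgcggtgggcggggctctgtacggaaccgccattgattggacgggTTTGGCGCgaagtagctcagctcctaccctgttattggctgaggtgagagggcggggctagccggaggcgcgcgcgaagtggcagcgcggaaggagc
Hells: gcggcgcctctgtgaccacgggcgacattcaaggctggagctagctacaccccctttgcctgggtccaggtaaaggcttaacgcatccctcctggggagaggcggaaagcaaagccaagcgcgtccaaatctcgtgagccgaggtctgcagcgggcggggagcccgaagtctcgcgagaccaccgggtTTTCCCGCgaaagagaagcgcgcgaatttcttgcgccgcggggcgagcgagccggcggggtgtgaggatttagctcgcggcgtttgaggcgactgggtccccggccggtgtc
In Mcm6 a pair of the 3 matches overlap each other. In the promoters of Prc1 (chr7:80294201-80294500, plus strand), a bundler of the central spindle, and Plk1 (chr7:122159185-122159484, plus strand), a mitotic kinase, the capitals mark the CHR, searched as TTTGAA on both strands. Prc1 has 2 promoter windows, and the first of them that holds a match is printed.
Prc1: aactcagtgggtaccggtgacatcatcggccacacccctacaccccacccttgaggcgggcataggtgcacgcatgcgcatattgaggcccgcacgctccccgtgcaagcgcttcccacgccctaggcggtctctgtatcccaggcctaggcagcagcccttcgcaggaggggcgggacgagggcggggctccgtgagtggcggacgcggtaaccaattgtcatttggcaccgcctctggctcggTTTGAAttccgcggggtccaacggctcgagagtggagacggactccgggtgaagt
Plk1: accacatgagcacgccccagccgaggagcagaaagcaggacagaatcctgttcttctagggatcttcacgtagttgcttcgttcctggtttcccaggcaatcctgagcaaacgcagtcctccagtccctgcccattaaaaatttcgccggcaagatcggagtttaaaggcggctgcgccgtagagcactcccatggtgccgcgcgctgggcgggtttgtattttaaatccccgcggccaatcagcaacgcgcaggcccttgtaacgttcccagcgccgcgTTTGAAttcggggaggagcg
In the promoters of Isg15 (chr4:156200769-156201068, minus strand), a ubiquitin-like protein, and Rsad2 (chr12:26456403-26456702, minus strand), the antiviral enzyme viperin, both made in response to interferon, and Lgals9 (chr11:78984875-78985174, minus strand), which encodes galectin 9, the capitals mark the interferon-stimulated response element (ISRE), searched as TTTC, any 2 bases and TTTC again, on both strands.
Isg15: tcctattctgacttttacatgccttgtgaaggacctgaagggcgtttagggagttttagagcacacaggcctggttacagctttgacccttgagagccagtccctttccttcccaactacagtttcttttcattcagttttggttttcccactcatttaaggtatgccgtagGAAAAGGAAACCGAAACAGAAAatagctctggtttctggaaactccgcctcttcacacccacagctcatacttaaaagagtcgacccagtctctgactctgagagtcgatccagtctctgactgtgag
Rsad2: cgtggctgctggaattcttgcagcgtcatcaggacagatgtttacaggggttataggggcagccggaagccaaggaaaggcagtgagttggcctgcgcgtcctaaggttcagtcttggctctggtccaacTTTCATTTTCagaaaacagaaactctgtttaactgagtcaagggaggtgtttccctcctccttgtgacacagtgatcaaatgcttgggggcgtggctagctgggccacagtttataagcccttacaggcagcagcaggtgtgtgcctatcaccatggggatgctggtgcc
Lgals9: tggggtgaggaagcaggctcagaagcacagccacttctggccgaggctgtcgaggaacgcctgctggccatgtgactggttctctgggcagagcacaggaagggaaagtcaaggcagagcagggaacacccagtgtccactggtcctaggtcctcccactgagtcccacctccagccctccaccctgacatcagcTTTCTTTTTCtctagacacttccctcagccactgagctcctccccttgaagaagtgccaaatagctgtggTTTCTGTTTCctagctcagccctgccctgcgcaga
The 3 matches in Isg15 overlap in a row. The promoter of mouse Pbsn (chrX:77853451-77853750, minus strand), the mouse counterpart of the rat probasin promoter that drives the transgene, is printed without capitals, as the full androgen response element, AGAACA, any 3 bases and TGTTCT, has no match in it.
Pbsn: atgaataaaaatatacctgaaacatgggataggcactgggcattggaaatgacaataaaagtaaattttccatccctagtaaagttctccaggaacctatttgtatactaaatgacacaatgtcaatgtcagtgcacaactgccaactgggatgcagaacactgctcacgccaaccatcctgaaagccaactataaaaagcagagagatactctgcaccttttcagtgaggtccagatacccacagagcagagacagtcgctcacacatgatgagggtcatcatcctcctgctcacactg

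Promoter windows were at hand for 10008 of the 13375 genes tested. An E2F site stood in 468 of these genes (4.68%), a CHR in 1424 (14.2%), a CCAAT box in 4256 (42.5%), an ISRE in 364 (3.64%) and a full androgen response element in 1. Of the 49 genes that license origins, unwind DNA, polymerise it or join its fragments, 41 had a window, and 17 of these (41.5%) held an E2F site, while 7 (17.1%) held a CHR. Of the 56 genes of condensin, cohesin, the kinetochore and the mitotic machinery, 43 had a window, and 26 of these (60.5%) held a CHR, while 8 (18.6%) held an E2F site. Of the 50 genes listed as nucleic acid sensors, interferon signalling factors or interferon-induced GTPases, 34 had a window, and 16 of these (47.1%) held an ISRE, among them 9 of the 10 windows of the GTPases. Read from the sequence side, 183 of the 468 genes with an E2F site (39.1%) were called higher in TRAMP prostates and 74 (15.8%) lower, and of the 364 genes with an ISRE 139 (38.2%) were called higher and 56 (15.4%) lower. Over all 10008 genes with a window these shares were 23.2% higher and 22.2% lower, and for the CHR they were 28.5% higher and 19.7% lower. Such matches describe the letters in these windows, and no test was run on them.

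Among the 15 named genes with the largest rise were interferon-induced genes, subunits of the DNA helicase and secreted proteins. Apol9a, an interferon-induced apolipoprotein L, had 41.2 and 53.1 FPKM in TRAMP prostates, against 0.876 and 0.602 FPKM in wild type prostates (log2 difference 4.78 ± 0.40, adjusted p = 8.08e-05), and its close copy Apol9b rose by 4.22 on the log2 scale, although reads of such near-identical genes can be split between them. Trim31, an E3 ubiquitin ligase that acts on the antiviral adaptor MAVS, had 23.9 and 21.6 FPKM in TRAMP prostates, against 1.02 and 0.421 FPKM in wild type prostates (log2 difference 3.81 ± 0.26, adjusted p = 3.35e-05). Oas2, which senses double-stranded RNA, had 22.4 and 11.6 FPKM in TRAMP prostates, against 0.107 and 0.105 FPKM in wild type prostates (log2 difference 3.96 ± 0.40, adjusted p = 1.85e-04). All 4 genes were below 2 FPKM in both wild type libraries. Clca3a2, of a family that regulates chloride channels, had 37.3 and 15.9 FPKM in TRAMP prostates, against 0.729 and 0.111 FPKM in wild type prostates (log2 difference 4.20 ± 0.61, adjusted p = 0.00109), with more than the other TRAMP library in replicate 0. Hp, the haemoglobin-binding protein haptoglobin, had 31.4 and 66.7 FPKM in TRAMP prostates, against 2.80 and 0.234 FPKM in wild type prostates (log2 difference 4.43 ± 0.98, adjusted p = 0.00796), and its libraries differed within each group; without wild type replicate 1 the log2 difference was 3.62 (adjusted p = 0.0583).

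Among the 15 named genes with the largest fall were a channel, a protease and a secreted protein. Kcnk3, a background potassium channel, had 17.1 and 25.4 FPKM in TRAMP prostates, against 304 and 379 FPKM in wild type prostates (log2 difference -3.96 ± 0.29, adjusted p = 4.42e-05). H2-Q10, a secreted class I histocompatibility protein, had 1.68 and 5.51 FPKM in TRAMP prostates, against 107 and 111 FPKM in wild type prostates (log2 difference -4.72 ± 0.46, adjusted p = 1.68e-04). Both TRAMP libraries held a small part of the wild type level of both genes. Pappa2, a protease of insulin-like growth factor binding proteins, fell by 3.13 (adjusted p = 2.74e-05). Rgs7bp, which anchors regulators of G protein signalling at the membrane, had 0.123 and 0.153 FPKM in TRAMP prostates, against 7.84 and 7.12 FPKM in wild type prostates (log2 difference -2.90 ± 0.11, adjusted p = 3.35e-06), with close replicates in both groups. C2cd4a and C2cd4b are related genes for nuclear proteins with a C2 domain. C2cd4a had 7.15 and 26.1 FPKM in TRAMP prostates, against 91.3 and 153 FPKM in wild type prostates (log2 difference -3.003 ± 0.49, adjusted p = 0.00193), and C2cd4b fell by 2.94 (adjusted p = 3.93e-05).

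**Figure D1:**
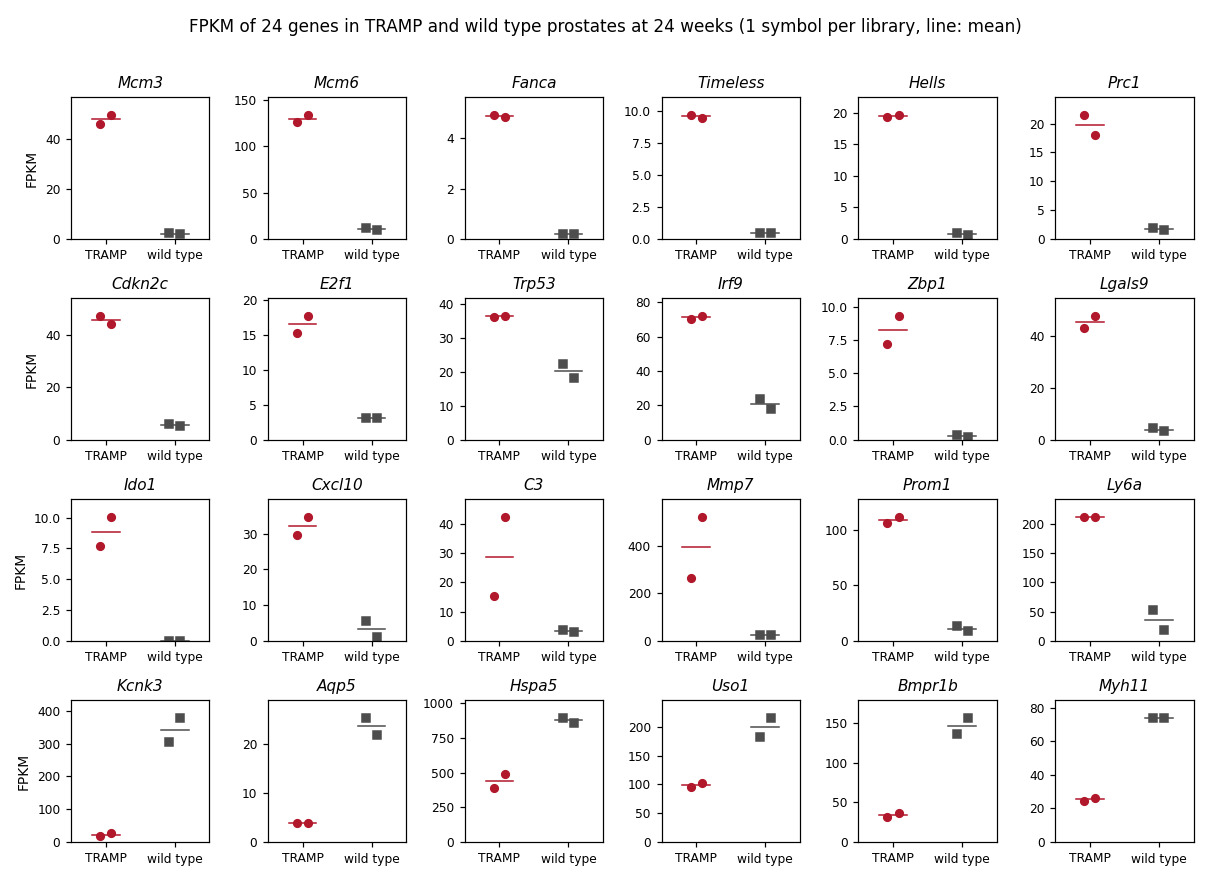
FPKM of 24 named genes in each library, with TRAMP libraries as circles on the left, wild type libraries as squares on the right and a line at the mean of each group, on linear axes that start at 0. In each panel the TRAMP and wild type libraries do not overlap, and the TRAMP libraries lie apart from each other most clearly for C3 and Mmp7.

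Most of the machinery that copies DNA rose. All 12 genes of the replicative helicase, which unwinds the template, rose, with a median log2 difference of 2.55, against 23.0% of all genes tested called higher. All 14 genes of the sliding clamp, its loader and Okazaki fragment joining rose (median 1.55), as did 11 of 12 genes of the DNA polymerases and primase (median 1.79). Of 11 genes that license origins, 8 rose (median 1.23), and none of these lists had a member that fell. Gins2, a subunit of the GINS complex of the helicase, had 33.7 and 33.1 FPKM in TRAMP prostates, against 3.89 and 3.17 FPKM in wild type prostates (log2 difference 2.93 ± 0.12, adjusted p = 4.68e-06). Pola1, the catalytic subunit of the polymerase that lays down primers, had 12.8 and 11.7 FPKM in TRAMP prostates, against 1.22 and 1.10 FPKM in wild type prostates (log2 difference 2.61 ± 0.09, adjusted p = 2.71e-06). Lig1, the ligase that joins Okazaki fragments, had 48.1 and 46.9 FPKM in TRAMP prostates, against 7.61 and 6.86 FPKM in wild type prostates (log2 difference 2.56 ± 0.10, adjusted p = 3.16e-06). In these genes the replicates differed by far less than the groups. Pcna, the sliding clamp, was abundant in both tissues and rose by 1.99 (adjusted p = 2.80e-06) to 145.1 and 165.1 FPKM in TRAMP prostates, against 37.7 and 38.4 FPKM in wild type prostates.

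The supply of DNA building blocks rose in 11 of 14 genes (median 1.15), including Tk1. Tk1, thymidine kinase, had 24.6 and 24.8 FPKM in TRAMP prostates, against 5.60 and 5.63 FPKM in wild type prostates (log2 difference 1.96 ± 0.10, adjusted p = 8.03e-06). Rrm2b, the p53-inducible subunit of ribonucleotide reductase, was the 1 member that fell, with 17.2 and 15.1 FPKM in TRAMP prostates, against 24.6 and 27.1 FPKM in wild type prostates (log2 difference -0.65 ± 0.08, adjusted p = 5.67e-04). Purine and pyrimidine synthesis moved less: 11 of 18 genes rose (7 after the GC correction), 1 fell, and the median was 0.26. Umps, which makes uridine monophosphate, had 5.93 and 7.11 FPKM in TRAMP prostates, against 2.11 and 1.54 FPKM in wild type prostates (log2 difference 1.41 ± 0.14, adjusted p = 1.90e-04).

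Chromatin assembly followed the same direction. All 12 histone chaperones and assembly factors rose (median 1.79), where 23.0% of all genes tested were called higher and 22.0% lower. Hells had 19.3 and 19.6 FPKM in TRAMP prostates, against 0.867 and 0.657 FPKM in wild type prostates (log2 difference 3.54 ± 0.12, adjusted p = 2.71e-06). Chaf1b, a subunit of the chromatin assembly factor that loads histones behind the fork, had 29.8 and 30.8 FPKM in TRAMP prostates, against 3.07 and 2.92 FPKM in wild type prostates (log2 difference 2.97 ± 0.12, adjusted p = 3.35e-06). Both wild type libraries held less than 1 FPKM of Hells. Histone genes were mixed, with 8 of 15 tested members higher (5 without wild type replicate 1) and 3 lower. H1fx, a linker histone variant, had 44.4 and 44.2 FPKM in TRAMP prostates, against 7.78 and 7.81 FPKM in wild type prostates (log2 difference 2.37 ± 0.10, adjusted p = 4.95e-06). H2afx, the variant phosphorylated at DNA breaks, had 63.97 and 59.8 FPKM in TRAMP prostates, against 19.1 and 17.6 FPKM in wild type prostates (log2 difference 1.70 ± 0.11, adjusted p = 2.62e-05). Of 20 Polycomb and histone methyltransferase genes 7 rose and 4 fell (1 fell in a fit on the 4 libraries alone, 1 when the scaling left out the 50 most abundant genes, and 1 or 2 when any 1 of the 4 libraries was left out). The shares of histone genes and of Polycomb and methyltransferase genes that fell were near the background of 22.0%. Suv39h1, which methylates histone H3 in heterochromatin, had 10.05 and 10.5 FPKM in TRAMP prostates, against 3.66 and 3.48 FPKM in wild type prostates (log2 difference 1.30 ± 0.09, adjusted p = 3.70e-05).

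Most genes of mitosis rose. All 20 mitotic kinases, kinesins and cytokinesis factors rose (median 2.05), as did 19 of 20 kinetochore and spindle checkpoint genes (median 1.63) and 14 of 16 genes of condensin and cohesin (median 1.29). Prc1 had 21.5 and 17.96 FPKM in TRAMP prostates, against 1.93 and 1.56 FPKM in wild type prostates (log2 difference 2.91 ± 0.16, adjusted p = 1.45e-05). Plk1 had 13.2 and 10.8 FPKM in TRAMP prostates, against 0.917 and 0.982 FPKM in wild type prostates (log2 difference 2.73 ± 0.17, adjusted p = 2.45e-05). Ndc80, the microtubule-binding subunit of the outer kinetochore, had 7.89 and 6.74 FPKM in TRAMP prostates, against 0.313 and 0.45 FPKM in wild type prostates (log2 difference 2.59 ± 0.18, adjusted p = 3.21e-05). All 3 were low in wild type prostates and lay slightly higher in TRAMP replicate 0 than in replicate 2.

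The regulators of the cell cycle did not all move one way. Of 16 genes listed with the cyclins and cyclin-dependent kinases 11 rose and 3 fell, against 23.0% of all genes tested called higher and 22.0% lower. The 3 that fell act in early G1 phase, but Ccnd3, cyclin D3, did not pass. The phosphatase Cdc25a, also in the list, did not pass either. Ccne1, cyclin E1, had 9.38 and 10.7 FPKM in TRAMP prostates, against 0.822 and 1.01 FPKM in wild type prostates (log2 difference 2.53 ± 0.12, adjusted p = 6.47e-06). Ccnd1, cyclin D1, had 4.86 and 8.79 FPKM in TRAMP prostates, against 25.5 and 22.4 FPKM in wild type prostates (log2 difference -1.72 ± 0.23, adjusted p = 6.91e-04). Cdk6, a kinase partner of the D cyclins, had 2.28 and 2.40 FPKM in TRAMP prostates, against 6.71 and 6.53 FPKM in wild type prostates (log2 difference -1.19 ± 0.25, adjusted p = 0.00631), and Ccnd2, cyclin D2, fell by 0.99 (adjusted p = 0.00817). Ccnd1 was thus lower and Ccne1 higher in both TRAMP libraries than in both wild type libraries. The D cyclins bring their kinases to the Rb protein, and inhibitors of the INK4 family bind those kinases. Of 8 genes listed as inhibitors of cyclin-dependent kinases, of the INK4 family and others, 6 rose and none fell, while Cdkn1a and Cdkn1c did not pass. Cdkn2a, of p16INK4A and p19ARF, had 136 and 119.7 FPKM in TRAMP prostates, against 0.404 and 0.555 FPKM in wild type prostates (log2 difference 6.44 ± 0.28, adjusted p = 4.95e-06). Cdkn2c, p18INK4C, had 47.1 and 43.9 FPKM in TRAMP prostates, against 5.91 and 5.26 FPKM in wild type prostates (log2 difference 2.82 ± 0.13, adjusted p = 4.95e-06). Cdkn2b, p15INK4B, had 10.3 and 7.76 FPKM in TRAMP prostates, against 2.37 and 1.97 FPKM in wild type prostates (log2 difference 1.65 ± 0.25, adjusted p = 0.00125).

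Of 16 E2F, pocket protein and related genes, 10 rose and 1 fell (median 0.74), against 23.0% of all genes tested called higher and 22.0% lower. E2f1, an activating E2F, had 15.4 and 17.7 FPKM in TRAMP prostates, against 3.14 and 3.18 FPKM in wild type prostates (log2 difference 2.07 ± 0.11, adjusted p = 1.44e-05). E2f8, a repressing one, had 3.94 and 3.76 FPKM in TRAMP prostates, against 0.261 and 0.171 FPKM in wild type prostates (log2 difference 1.996 ± 0.13, adjusted p = 2.74e-05). Rbl1, the pocket protein p107, had 12.3 and 11.3 FPKM in TRAMP prostates, against 3.41 and 3.75 FPKM in wild type prostates (log2 difference 1.49 ± 0.09, adjusted p = 2.20e-05). Rb1 itself had 9.22 and 7 FPKM in TRAMP prostates, against 6.29 and 7.31 FPKM in wild type prostates and did not pass (adjusted p = 0.194, and 0.0352 without TRAMP replicate 2). Trp53, the gene of p53, had 36.1 and 36.4 FPKM in TRAMP prostates, against 22.2 and 18.2 FPKM in wild type prostates (log2 difference 0.82 ± 0.08, adjusted p = 2.08e-04). Of 21 tested genes that p53 is known to activate, 8 fell and 3 rose (median -0.15), beside the same 22.0% lower and 23.0% higher. Gtse1, which is made in the G2 and M phases of the cycle, rose by 1.56 (adjusted p = 3.92e-04), and Phlda3, a repressor of AKT signalling, had 7.89 and 9.19 FPKM in TRAMP prostates, against 22.8 and 19.6 FPKM in wild type prostates (log2 difference -1.22 ± 0.26, adjusted p = 0.00639).

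DNA repair pathways differed in how many of their genes moved, beside 23.0% of all genes tested called higher and 22.0% lower. All 20 genes of homologous recombination and the Fanconi pathway, which mend breaks and crosslinks with a sister chromatid, rose (median 1.06). So did 6 of 7 mismatch repair genes (median 0.64), 8 of 15 replication checkpoint genes (median 0.54) and 9 of 18 genes of base and nucleotide excision repair (median 0.31). Of 10 genes of non-homologous end joining, which rejoins broken ends without a template, 1 rose, 2 fell and 7 did not pass (median 0.01, and -0.12 after quantile normalization). The share of end joining genes that rose was below the background, and the share that fell was near it. Fanca, a subunit of the Fanconi core complex, had 4.94 and 4.85 FPKM in TRAMP prostates, against 0.202 and 0.189 FPKM in wild type prostates (log2 difference 2.30 ± 0.11, adjusted p = 5.81e-06). Timeless, of the fork protection complex, had 9.69 and 9.46 FPKM in TRAMP prostates, against 0.427 and 0.439 FPKM in wild type prostates (log2 difference 2.88 ± 0.12, adjusted p = 4.95e-06). In both genes the lower TRAMP library lay far above the higher wild type library. In the end joining pathway Xrcc6, the Ku70 subunit, had 39.4 and 39.3 FPKM in TRAMP prostates, against 24.2 and 23.2 FPKM in wild type prostates (log2 difference 0.71 ± 0.05, adjusted p = 5.03e-05). Xrcc5, its Ku80 partner, had 18.01 and 17.9 FPKM in TRAMP prostates, against 22.3 and 23.3 FPKM in wild type prostates (log2 difference -0.33 ± 0.06, adjusted p = 0.00237). The subunits of Ku thus moved in opposite directions, each by less than 1 on the log2 scale. The 1 mismatch repair gene that fell was Mlh3, which is also needed in meiosis, with 4.68 and 4.73 FPKM in TRAMP prostates, against 7.45 and 6.69 FPKM in wild type prostates (log2 difference -0.50 ± 0.08, adjusted p = 0.00225). The difference between the pathways was not tested.

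**Figure D2:**
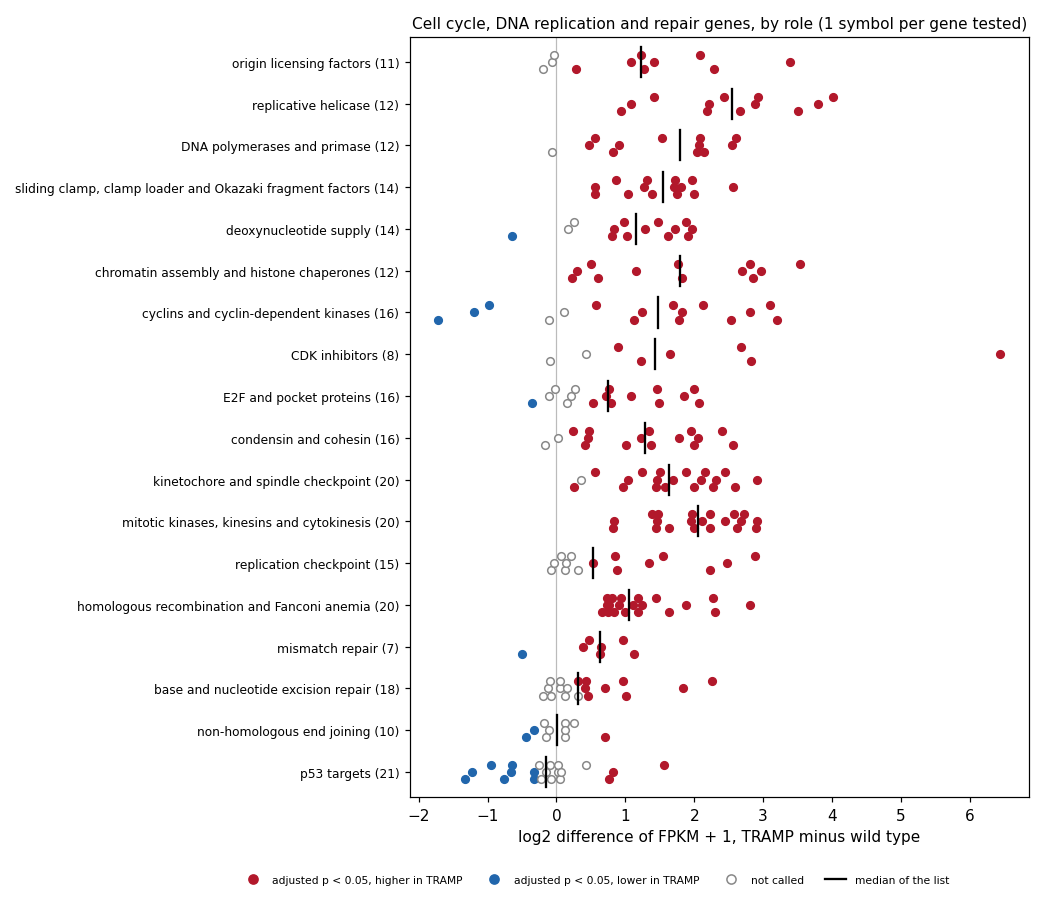
Log2 difference of FPKM + 1 (horizontal axis, TRAMP minus wild type) of each tested gene in 18 lists of cell cycle, replication and repair genes, with the number tested in parentheses; filled red symbols rose, filled blue symbols fell, open symbols did not pass, and the vertical line is the list's median. The helicase, clamp, mitotic and recombination lists lie wholly to the right of 0, while end joining genes and p53 targets lie around 0.

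Interferon-driven genes rose, whereas most interferon genes were listed at or near 0. Of 16 tested sensors of viral or misplaced nucleic acid and their adaptors 12 rose and none fell (median 1.22). The background was 23.0% of all genes tested called higher and 22.0% lower. Zbp1, a sensor of nucleic acid in the Z form, had 7.20 and 9.30 FPKM in TRAMP prostates, against 0.361 and 0.208 FPKM in wild type prostates (log2 difference 2.84 ± 0.51, adjusted p = 0.00304). Ddx58, the RNA sensor RIG-I, had 18.5 and 20.4 FPKM in TRAMP prostates, against 4.42 and 2.80 FPKM in wild type prostates (log2 difference 2.17 ± 0.25, adjusted p = 3.36e-04). Mb21d1, the DNA sensor cGAS, had 3.84 and 4.67 FPKM in TRAMP prostates, against 0.244 and 0.218 FPKM in wild type prostates (log2 difference 2.09 ± 0.11, adjusted p = 1.03e-05). Mavs, the adaptor of RIG-I, had 24.1 and 22.3 FPKM in TRAMP prostates, against 21.6 and 24.9 FPKM in wild type prostates and did not pass (adjusted p = 0.988), and its libraries overlapped between the groups.

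Of the 15 interferon and receptor genes in the list, 7 could be tested, 2 rose and 1 fell. Over all genes tested 23.0% were called higher and 22.0% lower, so these few calls lay around the background. Ifna1, Ifna2, Ifna4, Ifnl2 and Ifnl3 were listed at 0 in all 4 libraries, and Ifnb1 was listed at 0.0406 FPKM in TRAMP replicate 0 and at 0 in the other libraries. Ifng, the interferon of T and NK cells, was listed at 0.13 and 0.219 FPKM in TRAMP prostates and at 0 in both wild type prostates, and was too low to be tested. Ifne, an interferon of epithelia, had 1.37 and 0.794 FPKM in TRAMP prostates, against 0.207 and 0.272 FPKM in wild type prostates (log2 difference 0.73 ± 0.15, adjusted p = 0.00565), with an adjusted p of 0.0504 after quantile normalization. Genes that every cell uses, such as Oaz1, were also listed at or near 0, so a 0 does not show that a gene is silent. Downstream, 10 of 16 signalling kinases and transcription factors rose and 2 fell (median 0.49). Irf9, a subunit of the factor that binds the ISRE, had 70.5 and 72.2 FPKM in TRAMP prostates, against 23.5 and 17.9 FPKM in wild type prostates (log2 difference 1.75 ± 0.16, adjusted p = 1.21e-04). Irf2, a repressor of the same sites, had 59.7 and 57.7 FPKM in TRAMP prostates, against 115 and 128 FPKM in wild type prostates (log2 difference -1.04 ± 0.07, adjusted p = 2.60e-05).

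The guanylate-binding proteins and immunity-related GTPases attack vacuoles of intracellular pathogens and are classical targets of interferon gamma. Their list, which also holds Mx1 of another GTPase family, rose in 17 of 18 tested genes (median 1.65), against 23.0% of all genes tested. Mx1 was the 1 member that did not pass. Gbp6 had 12.6 and 14.9 FPKM in TRAMP prostates, against 2.47 and 1.60 FPKM in wild type prostates (log2 difference 2.30 ± 0.25, adjusted p = 2.49e-04). Gbp3 had 6.23 and 6.15 FPKM in TRAMP prostates, against 0.803 and 0.561 FPKM in wild type prostates (log2 difference 2.10 ± 0.21, adjusted p = 1.96e-04). Irgm2 and Igtp rose by 2.37 and 2.12 (adjusted p = 4.03e-05 and 1.48e-04), but their annotated spans on chromosome 11 overlap and their reads may not be separable. The wild type libraries differed from each other in Gbp6, Gbp3, Irgm2 and Igtp, with replicate 0 the higher of the pair in each.

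Signals to and from immune cells moved in part, beside 23.0% of all genes tested called higher and 22.0% lower. Of 25 tested chemokines 13 rose (5 without TRAMP replicate 2, 7 without wild type replicate 1), 3 fell (1 without TRAMP replicate 2 or wild type replicate 0) and 9 did not pass (median 0.72). Cxcl10, which draws T cells and is induced by interferon, had 29.5 and 34.6 FPKM in TRAMP prostates, against 5.55 and 1.02 FPKM in wild type prostates (log2 difference 3.18 ± 0.51, adjusted p = 0.00185). Ccl8, which draws monocytes, had 7.71 and 32.2 FPKM in TRAMP prostates, against 0.359 and 0.794 FPKM in wild type prostates (log2 difference 3.44 ± 0.80, adjusted p = 0.00992). Wild type replicate 0 stood above replicate 1 for Cxcl10, and TRAMP replicate 2 above replicate 0 for Ccl8, whose adjusted p was 0.0558 without TRAMP replicate 2 and 0.0513 without wild type replicate 0. Cxcl15, the lung chemokine lungkine, was the chemokine with the largest fall, with 0.735 and 0.605 FPKM in TRAMP prostates, against 10.6 and 8.56 FPKM in wild type prostates (log2 difference -2.66 ± 0.16, adjusted p = 2.15e-05). Of 12 tested immune checkpoint and costimulation genes 7 rose (4 without wild type replicate 1) and none fell. The filter on low values favoured genes high in TRAMP libraries, which bears on this count. With a filter of 1 FPKM over the 4 libraries 5 rose and none fell. Ido1, which breaks down tryptophan and restrains T cells, had 7.66 and 10.1 FPKM in TRAMP prostates and was listed at 0 in both wild type prostates (adjusted p = 0.00133), so no fold is given. Lgals9, whose product binds the receptor TIM-3, had 43.1 and 47.7 FPKM in TRAMP prostates, against 4.52 and 3.38 FPKM in wild type prostates (log2 difference 3.24 ± 0.32, adjusted p = 1.74e-04). Cd274, PD-L1, had 1.56 and 1.69 FPKM in TRAMP prostates, against 0.858 and 0.632 FPKM in wild type prostates (log2 difference 0.59 ± 0.11, adjusted p = 0.00365).

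Complement genes rose in 11 of 19 tested members (median 1.21; 5 members without TRAMP replicate 2 and 7 without wild type replicate 1), and none fell. C3, the central component, had 15.2 and 42.3 FPKM in TRAMP prostates, against 3.73 and 2.88 FPKM in wild type prostates (log2 difference 2.63 ± 0.72, adjusted p = 0.0199). C4b had 4.42 and 12.02 FPKM in TRAMP prostates, against 1.14 and 0.81 FPKM in wild type prostates (log2 difference 2.09 ± 0.49, adjusted p = 0.00987). The adjusted p was 0.111, 0.0609 and 0.0915 for C3 without TRAMP replicate 2, wild type replicate 0 and wild type replicate 1, and 0.0525 and 0.0570 for C4b without TRAMP replicate 2 and wild type replicate 1. Summed over the complement list, FPKM were 234.4 and 532 in TRAMP prostates, against 137.4 and 103.2 in wild type prostates. The 10 macrophage markers summed to 87.9 and 161.0 FPKM in TRAMP prostates, against 41.9 and 37.4 FPKM in wild type prostates. Of these 7 rose, and none was at 0 in a library. Their number was 3, 4 and 3 without TRAMP replicate 2, wild type replicate 0 and wild type replicate 1. Replicate 2 of TRAMP was the higher in both sums, and the lists share 1 gene, C1qa. In bulk RNA more cells of a type and more RNA per cell cannot be told apart, and the part of the macrophage RNA in these results was not tested. T and NK cell markers rose in 7 of 11 tested genes (3 without wild type replicate 1, and 4 with a filter of 1 FPKM), with sums of 35.0 and 37.5 FPKM in TRAMP prostates, against 18.6 and 15.6 FPKM in wild type prostates. Gzmb, a protease of killer cells, had 13.8 and 11.7 FPKM in TRAMP prostates, against 8.07 and 5.35 FPKM in wild type prostates (log2 difference 0.85 ± 0.20, adjusted p = 0.00973). Its adjusted p was 0.0530 without TRAMP replicate 0 and 0.0586 without wild type replicate 1.

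**Figure D3:**
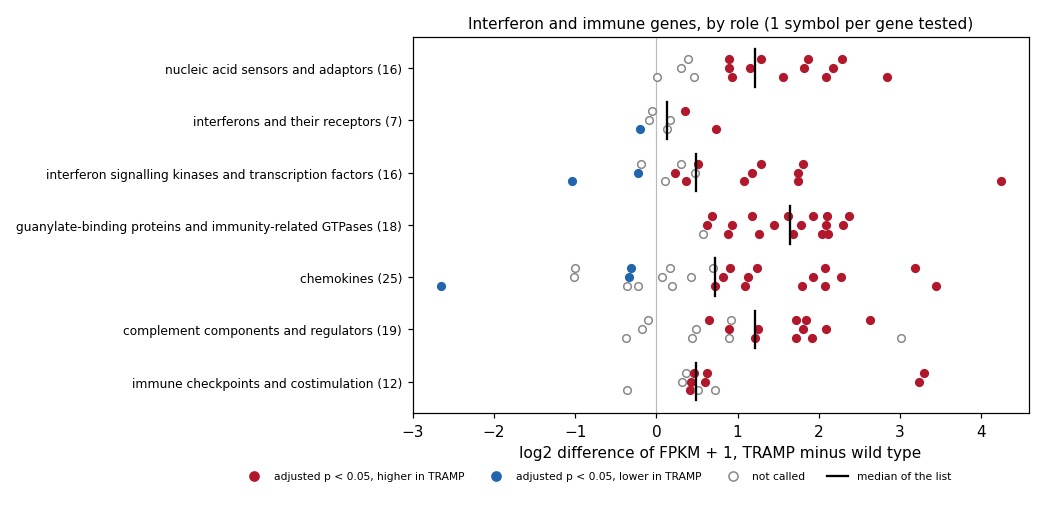
Log2 difference of FPKM + 1 (horizontal axis, TRAMP minus wild type) of each tested gene in 7 lists of interferon and immune genes, with the number tested in parentheses; filled red symbols rose, filled blue symbols fell, open symbols did not pass, and the vertical line is the list's median. Sensors, GTPases and complement genes lie mostly to the right of 0, and the interferon receptors lie near 0.

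The tissue of both groups carried the markers of prostate epithelium, and its layers changed unequally. Krt8, the keratin of luminal cells, had 377 and 387 FPKM in TRAMP prostates, against 418 and 366 FPKM in wild type prostates (adjusted p = 0.75; log2 difference 0.36, adjusted p = 0.00575, after quantile normalization), with overlapping libraries. The 16 luminal markers summed to 3984 and 3953 FPKM in TRAMP prostates, against 3815 and 3082 FPKM in wild type prostates. Of the luminal markers 5 rose (9 after quantile normalization, and 8 when the scaling left out the 50 most abundant genes) and 2 fell, and Ly6a among them is known as a marker of progenitor-like luminal cells of the ducts near the urethra. Prom1, CD133, had 106 and 112 FPKM in TRAMP prostates, against 13 and 9.05 FPKM in wild type prostates (log2 difference 3.21 ± 0.26, adjusted p = 7.04e-05). Ly6a, Sca-1, had 211 and 212 FPKM in TRAMP prostates, against 52.8 and 18.03 FPKM in wild type prostates (log2 difference 2.73 ± 0.59, adjusted p = 0.00717). Wild type replicate 0 held more of Ly6a than replicate 1, and the groups did not overlap. Basal markers fell in 11 of 14 tested genes and rose in 1 (median -1.07), against 22.0% of all genes tested called lower. They summed to 143.0 and 136.7 FPKM in TRAMP prostates, against 264.4 and 238.6 FPKM in wild type prostates. Jag2, a Notch ligand of basal cells, had 1.42 and 1.73 FPKM in TRAMP prostates, against 7.87 and 7.97 FPKM in wild type prostates (log2 difference -1.79 ± 0.15, adjusted p = 7.54e-05). Smooth muscle markers fell in 10 of 13 genes (median -1.28). They summed to 334.5 and 393.7 FPKM in TRAMP prostates, against 898.0 and 876.6 FPKM in wild type prostates. Myh11, smooth muscle myosin, had 24.2 and 26.3 FPKM in TRAMP prostates, against 73.6 and 73.9 FPKM in wild type prostates (log2 difference -1.51 ± 0.36, adjusted p = 0.0113), with an adjusted p of 0.0541 without wild type replicate 1.

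Other cell types were less even between replicates. Fibroblast markers summed to 103.8 and 300.7 FPKM in TRAMP prostates, against 160.6 and 156.6 FPKM in wild type prostates, and 1 of 12 tested markers rose (3 without TRAMP replicate 0). The TRAMP libraries thus lay on either side of wild type. Adipocyte markers summed to 187.1 and 278.1 FPKM in TRAMP prostates, against 200.2 and 118.3 FPKM in wild type prostates, with 1 of 11 tested markers higher and 1 lower. Endothelial markers rose in 2 of 12 genes (none after quantile normalization), a smaller share than the 23.0% of all genes tested. Neuroendocrine markers were low, at a sum of 1.84 and 2.08 FPKM in TRAMP prostates, against 2.49 and 3.34 FPKM in wild type prostates, and none of the 5 that could be tested passed. Markers of the seminal vesicle, a neighbouring gland, summed to 0.198 and 0.227 FPKM in TRAMP prostates, against 4.92 and 8.03 FPKM in wild type prostates. Svs5 among them was listed at 0 in both TRAMP prostates, against 2.22 and 3.97 FPKM in wild type prostates (adjusted p = 0.0054). The part that the mix of cell types had in the other results was not tested.

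**Figure D4:**
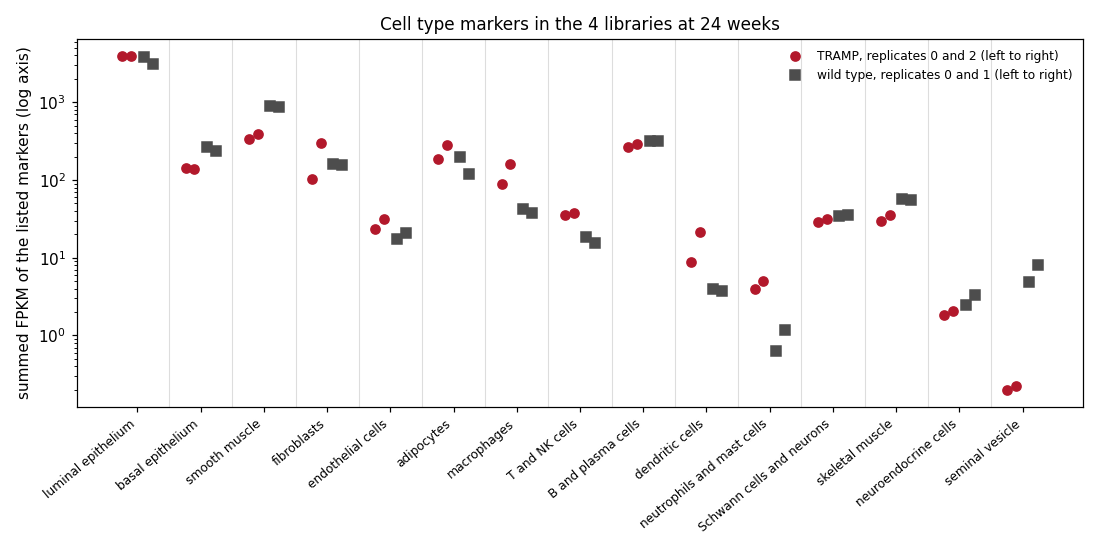
Summed FPKM of marker genes of 15 cell types or tissues in each library (vertical log axis), with TRAMP libraries as circles to the left of wild type libraries as squares. Smooth muscle and basal markers are lower in both TRAMP libraries, macrophage and T cell markers are higher in both, and fibroblast markers are lower than wild type in TRAMP replicate 0 and higher in replicate 2.

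Many genes of the secretory luminal cell fell, with exceptions. The list holds mostly secreted proteins, together with membrane proteins such as the calcium channel Trpv6. Of its 18 tested genes 12 fell and 3 rose (median -1.45), and their sum was 10004 and 11014 FPKM in TRAMP prostates, against 33034 and 33955 FPKM in wild type prostates. Pbsn, probasin, varied between replicates, with 15.5 and 74.8 FPKM in TRAMP prostates, against 664 and 1619.8 FPKM in wild type prostates (log2 difference -4.87 ± 0.73, adjusted p = 0.00127), so that TRAMP replicate 2 kept more of it than replicate 0. Azgp1, zinc-alpha-2-glycoprotein, had 341 and 381 FPKM in TRAMP prostates, against 913 and 881 FPKM in wild type prostates (log2 difference -1.31 ± 0.09, adjusted p = 3.42e-05). Apof, Clu and Cfi were the 3 that rose. Apof, apolipoprotein F, had 312 and 346 FPKM in TRAMP prostates, against 61.4 and 68.5 FPKM in wild type prostates (log2 difference 2.33 ± 0.15, adjusted p = 2.62e-05). Clu, the chaperone clusterin, had 1514 and 1436 FPKM in TRAMP prostates, against 444 and 241 FPKM in wild type prostates (log2 difference 2.17 ± 0.43, adjusted p = 0.00481). Cfi, a protease that inactivates complement, had a log2 difference of 0.89 (adjusted p = 0.00464).

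Within families of clustered secretory genes, members moved in opposite directions. On chromosome 2, in a cluster of genes with whey acidic protein domains, Wfdc12 had 22.3 and 24.6 FPKM in TRAMP prostates, against 0.0633 and 0.124 FPKM in wild type prostates (log2 difference 4.48 ± 0.42, adjusted p = 1.43e-04). Wfdc15b had 6.92 and 16.7 FPKM in TRAMP prostates, against 0.72 and 0.235 FPKM in wild type prostates (log2 difference 3.02 ± 0.34, adjusted p = 3.00e-04). In contrast, Wfdc3 had 0.953 and 5.23 FPKM in TRAMP prostates, against 453 and 317 FPKM in wild type prostates (log2 difference -6.77 ± 0.46, adjusted p = 3.20e-05). Wfdc2 had 19.3 and 15.04 FPKM in TRAMP prostates, against 87.2 and 53.02 FPKM in wild type prostates (log2 difference -1.94 ± 0.30, adjusted p = 0.00162). In the annotation of mm10 these genes start at positions 164189231, 164214454, 164731180 and 164562413 of chromosome 2, in the order named. Wfdc12 and its neighbour Wfdc15b thus rose, and Wfdc2 and Wfdc3 fell. On chromosome 7, among the secretoglobins, small secreted proteins of which many are androgen-binding, Scgb2b27 had 307 and 372 FPKM in TRAMP prostates, against 68.8 and 64.3 FPKM in wild type prostates (log2 difference 2.33 ± 0.17, adjusted p = 4.97e-05). Scgb1b27 had 49.4 and 58.8 FPKM in TRAMP prostates, against 5.61 and 7.38 FPKM in wild type prostates (log2 difference 2.88 ± 0.53, adjusted p = 0.00329). In contrast, Scgb1b20 had 15.8 and 21.6 FPKM in TRAMP prostates, against 143 and 59.9 FPKM in wild type prostates (log2 difference -2.27 ± 0.41, adjusted p = 0.00311). Secretoglobin copies are alike in sequence, and reads could be split between them. Of 12 tested defensins and antimicrobial proteins 4 fell (2 in a fit on the 4 libraries alone) and 1 rose. Of all genes tested 22.0% were called lower and 23.0% higher. Defb1, a beta-defensin, had 11.4 and 99.3 FPKM in TRAMP prostates, against 323 and 358 FPKM in wild type prostates (log2 difference -3.27 ± 0.78, adjusted p = 0.0107). TRAMP replicate 2 again kept more of it than replicate 0, and its adjusted p was 0.0556 without wild type replicate 1.

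Of 19 tested genes listed for the androgen response 10 fell and 1 rose (median -0.36), against 22.0% of all genes tested called lower. The list mixes genes that androgens induce with others, such as Srd5a2 and Foxa1, so the count does not measure the response itself. Hoxd13, a homeobox gene of the urogenital tract, had 1.18 and 1.93 FPKM in TRAMP prostates, against 8.41 and 7.91 FPKM in wild type prostates (log2 difference -1.86 ± 0.19, adjusted p = 2.24e-04). Fkbp5, a chaperone that androgens induce, had 106 and 117 FPKM in TRAMP prostates, against 171 and 269 FPKM in wild type prostates (log2 difference -0.94 ± 0.18, adjusted p = 0.00416), and Srd5a2, which makes dihydrotestosterone, fell by 1.15 (adjusted p = 0.00822). Foxa1, a pioneer factor of prostate epithelium, had 217 and 231 FPKM in TRAMP prostates, against 220.0 and 240.4 FPKM in wild type prostates and did not pass (adjusted p = 0.715).

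The machinery that carries proteins out of the cell fell too, with smaller medians than the list of secretory proteins. Over all genes tested 22.0% were called lower and 23.0% higher. Coats and tethers of vesicles between the endoplasmic reticulum (ER) and the Golgi fell in 22 of 26 genes and rose in none (median -0.50). Genes of ER translocation and folding fell in 15 of 20 (9 after quantile normalization) and rose in 1 (median -0.43). Genes of N-linked glycosylation fell in 11 of 23 (7 when the scaling left out the 50 most abundant genes) and rose in 1 (median -0.21). Transcription factors and sensors of the unfolded protein response fell in 7 of 15 (4 without wild type replicate 1, and 4 under the same scaling) and rose in 1 (median -0.30). Hspa5, the ER chaperone BiP, had 391 and 492 FPKM in TRAMP prostates, against 894 and 859 FPKM in wild type prostates (log2 difference -0.997 ± 0.11, adjusted p = 3.18e-04). Uso1, the tether p115 that docks vesicles at the Golgi, had 96.1 and 102 FPKM in TRAMP prostates, against 183 and 216 FPKM in wild type prostates (log2 difference -0.999 ± 0.09, adjusted p = 1.16e-04). Sar1a, the GTPase that starts the coat of outgoing vesicles, had 85.6 and 88.4 FPKM in TRAMP prostates, against 139 and 157 FPKM in wild type prostates (log2 difference -0.76 ± 0.07, adjusted p = 1.72e-04). The TRAMP libraries lay close to each other for Uso1 and Sar1a. Ero1l, an ER oxidase, was the 1 folding gene that rose, with 15.9 and 16.8 FPKM in TRAMP prostates, against 7.71 and 8.82 FPKM in wild type prostates (log2 difference 0.91 ± 0.07, adjusted p = 7.21e-05). Creb3l4, a transcription factor that is made in prostate epithelium and resides in the ER, had 18.2 and 13.97 FPKM in TRAMP prostates, against 42.5 and 30.7 FPKM in wild type prostates (log2 difference -1.13 ± 0.16, adjusted p = 8.35e-04).

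Transport of ions and zinc, which the prostate concentrates in its fluid, fell in many genes. The counts stand beside 22.0% of all genes tested called lower and 23.0% called higher. Of 21 tested channels, pumps and aquaporins 11 fell and 3 rose (median -0.53). Aqp5, a water channel, had 3.77 and 3.81 FPKM in TRAMP prostates, against 25.2 and 21.8 FPKM in wild type prostates (log2 difference -2.35 ± 0.09, adjusted p = 2.80e-06). Kcnn4, a calcium-activated potassium channel, had 2.79 and 4.42 FPKM in TRAMP prostates, against 22.2 and 18.4 FPKM in wild type prostates (log2 difference -2.23 ± 0.20, adjusted p = 1.01e-04). Of 18 zinc transporters and metallothioneins 10 fell and 2 rose (median -0.61). Mt1, metallothionein 1, had 388 and 289 FPKM in TRAMP prostates, against 861 and 929 FPKM in wild type prostates (log2 difference -1.42 ± 0.12, adjusted p = 9.74e-05). Slc39a10, a zinc importer, had 5.95 and 6.07 FPKM in TRAMP prostates, against 17.1 and 20.1 FPKM in wild type prostates (log2 difference -1.48 ± 0.11, adjusted p = 4.01e-05). Slc39a8, another importer, had 59.3 and 66.1 FPKM in TRAMP prostates, against 24.2 and 16.1 FPKM in wild type prostates (log2 difference 1.61 ± 0.20, adjusted p = 5.14e-04). The importers thus moved in opposite directions with no overlap of the groups. Polyamines are a further product of the gland, and 6 of 13 genes of their metabolism fell while 3 rose (1 after quantile normalization, after the GC correction, in the fit on the 4 libraries and without TRAMP replicate 0). The share of polyamine genes that rose was near the background of 23.0%. Odc1, the enzyme that starts polyamine synthesis, had 90.6 and 135 FPKM in TRAMP prostates, against 220.1 and 311 FPKM in wild type prostates (log2 difference -1.24 ± 0.24, adjusted p = 0.00435). Smox, which oxidises spermine, had 16.6 and 15.9 FPKM in TRAMP prostates, against 8.71 and 9.06 FPKM in wild type prostates (log2 difference 0.80 ± 0.07, adjusted p = 7.98e-05).

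**Figure D5:**
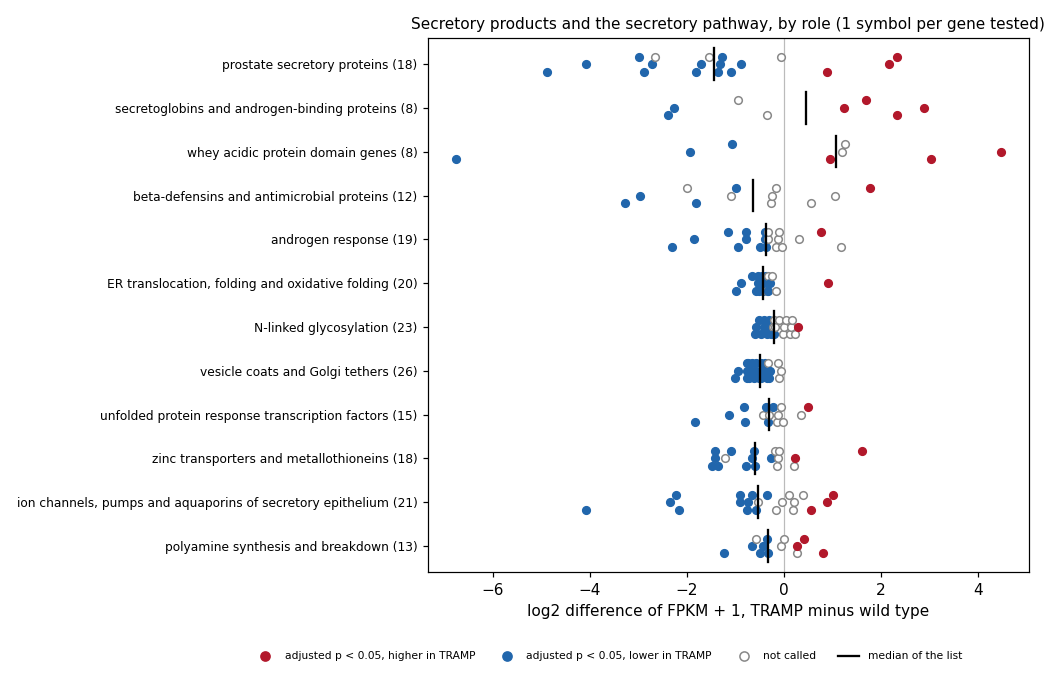
Log2 difference of FPKM + 1 (horizontal axis, TRAMP minus wild type) of each tested gene in 12 lists of secretory products and the secretory pathway, with the number tested in parentheses; filled red symbols rose, filled blue symbols fell, open symbols did not pass, and the vertical line is the list's median. The list of secretory proteins spreads over a wide range, while vesicle coat genes lie close together to the left of 0.

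Growth factor pathways and the matrix changed in a part of their genes. Of all genes tested 23.0% were called higher and 22.0% lower, and the counts below stand beside these shares. In the TGF-beta and BMP pathway 11 of 23 tested genes fell and 3 rose (1 without wild type replicate 1; median -0.30). Bmpr1b, a BMP receptor, had 31.4 and 36.2 FPKM in TRAMP prostates, against 136 and 156 FPKM in wild type prostates (log2 difference -2.08 ± 0.13, adjusted p = 2.15e-05). Bmp7, a ligand, had 2.94 and 6.21 FPKM in TRAMP prostates, against 13.4 and 13.9 FPKM in wild type prostates (log2 difference -1.46 ± 0.25, adjusted p = 0.00265). Id4, a target that blocks differentiation factors, had 2.71 and 4.89 FPKM in TRAMP prostates, against 12.5 and 23.9 FPKM in wild type prostates (log2 difference -1.97 ± 0.35, adjusted p = 0.00274). These genes were named because they were among the called members of largest change. Tgfbr1, another receptor, and Smad7 did not pass. In the Wnt pathway 7 of 20 fell and 2 rose. Wif1, a secreted inhibitor, had 4.31 and 6.88 FPKM in TRAMP prostates, against 23.3 and 18.6 FPKM in wild type prostates (log2 difference -1.75 ± 0.18, adjusted p = 2.08e-04). Axin2, a target, had 0.867 and 2.17 FPKM in TRAMP prostates, against 4.43 and 4.54 FPKM in wild type prostates (log2 difference -1.17 ± 0.21, adjusted p = 0.00334). Among fibroblast growth factor genes 7 of 12 fell and 1 rose. Fgfr3, a receptor, had 0.81 and 0.817 FPKM in TRAMP prostates, against 3.48 and 3.40 FPKM in wild type prostates (log2 difference -1.29 ± 0.12, adjusted p = 1.16e-04). Dusp6, a phosphatase induced by the pathway, had 3.59 and 4.90 FPKM in TRAMP prostates, against 9.87 and 11.3 FPKM in wild type prostates (log2 difference -1.15 ± 0.18, adjusted p = 0.00157). Fgfbp1, a carrier that frees the ligands from the matrix, had 121 and 38.7 FPKM in TRAMP prostates, against 20.3 and 23.1 FPKM in wild type prostates (log2 difference 1.62 ± 0.43, adjusted p = 0.0179). Its adjusted p was 0.0776 without wild type replicate 0 and 0.0625 without wild type replicate 1. Insulin-like growth factor genes fell in 4 of 13 tested cases and rose in none, but 7 fell after the GC correction, 2 when the scaling left out the 50 most abundant genes, and 1 or 2 when any 1 of the 4 libraries was left out. Notch genes split evenly, with 4 of 12 higher and 4 lower. Notch1, a receptor, had 10.7 and 11.8 FPKM in TRAMP prostates, against 4.75 and 5.63 FPKM in wild type prostates (log2 difference 0.99 ± 0.11, adjusted p = 2.89e-04). Lfng, which modifies it, had 5.42 and 7.71 FPKM in TRAMP prostates, against 1.87 and 1.62 FPKM in wild type prostates (log2 difference 1.45 ± 0.24, adjusted p = 0.00196). The ligand Jag2 fell as given above.

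Of 19 tested matrix proteases and inhibitors 8 rose and 2 fell (median 0.56), and between 2 and 5 rose when any 1 of the 4 libraries was left out. Mmp7, matrilysin, a protease of epithelial cells, had 265 and 520.2 FPKM in TRAMP prostates, against 26.1 and 26.2 FPKM in wild type prostates (log2 difference 3.78 ± 0.33, adjusted p = 1.01e-04), the highest level of any gene in this list in either TRAMP library. Mmp3, stromelysin 1, had 2.74 and 2.66 FPKM in TRAMP prostates and was listed at 0 in both wild type prostates (adjusted p = 9.02e-04). Timp1, an inhibitor of such proteases, had 31.1 and 29.2 FPKM in TRAMP prostates, against 5.31 and 5.16 FPKM in wild type prostates (log2 difference 2.32 ± 0.78, adjusted p = 0.0423). Plau, urokinase, had 2.92 and 5.61 FPKM in TRAMP prostates, against 1.12 and 1.13 FPKM in wild type prostates (log2 difference 1.26 ± 0.34, adjusted p = 0.0189). The adjusted p of Timp1 was 0.114 to 0.137 when any 1 library was left out, and that of Plau was 0.106, 0.0696 and 0.0751 without TRAMP replicate 2, wild type replicate 0 and wild type replicate 1. Collagen genes had 3 of 14 tested members lower (1 without wild type replicate 1) and none higher, near the background of 22.0% lower. Their sums were 66.9 and 190.7 FPKM in TRAMP prostates, against 87.3 and 87.5 FPKM in wild type prostates, so that the 2 TRAMP libraries again lay on either side of wild type, as for the fibroblast markers. Col18a1, a collagen of basement membranes, had 2.82 and 4.68 FPKM in TRAMP prostates, against 14.7 and 11.7 FPKM in wild type prostates (log2 difference -1.60 ± 0.20, adjusted p = 5.54e-04). The median log2 difference of the collagens was 0.40, and it was 0.89 without TRAMP replicate 0 and -0.08 without TRAMP replicate 2.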

How the data were processed

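The deposited values were FPKM for 24421 genes in each of 12 libraries. The submitters' processing notes name HISAT2, Picard, featureCounts, DESeq2 and the build mm10, with no version or role, and strand use in counting is not given in the sources used here. A count model was not used, since FPKM are scaled values; the steps between low values gave the relative depth alone. The fit used limma 3.58.1 in R 4.3.3 on log2(FPKM + 1), a scale that understates changes of low genes, with a mean for each of 7 groups over the 12 libraries, 5 residual degrees of freedom and an intensity trend; p-values are two-sided and Benjamini-Hochberg adjusted over 13375 genes. The fit was tried on simulated data with independent noise and few changed genes, a setting that cannot test the scaling.

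Positions came from GENCODE M21 on GRCm38 (95.8% of symbols matched), and promoters from RefSeq. Among the genes named, Cxcl10, Timp1, Prc1, Xrcc6, Sycp3, Shh and H1fx lie wholly or mostly within the span of another gene on the other strand, and without strand their reads may not be told apart. Genes were named by rule: the 15 called genes of largest change in each direction, up to 4 called and 2 uncalled members per list, and 10 fixed genes. Some named genes are not reported here. Apof, Azgp1, Ccnd1, Ccnd2, Cdk6, Cfi, Clu, Irf2, Mlh3 and Rrm2b lie outside it and were picked with their values known. The members and lists were chosen with earlier results of these data known. The lists are described by counts and medians, with no test of a list. Each such count stands beside 23.0% of all genes tested called higher and 22.0% called lower. Alternatives were other pseudocounts, filters and scalings, a GC correction, no intensity trend, a fit on the 4 libraries, and leaving out each library.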

Additional observations from a re-analysis of the deposited data

Results flagged for a closer look

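In 4 named genes the difference of the TRAMP effect between 24 and 16 weeks passed its test, which called 49 genes (0.366% of those tested). Wild type prostate of 16 weeks is 1 library, assumed to vary like the others, so a difference of age cannot be told apart from a library that stands apart. For Svs5, a seminal vesicle protein, the fitted difference of the effects was 9.05 ± 0.64 on the log2 scale (adjusted p = 0.000672), a size set by the pseudocount, since TRAMP libraries were listed at or near 0. The 16-week values were 0 and 0.931 FPKM in TRAMP prostates, against 2945 FPKM in wild type prostate. That 16-week wild type library thus carried seminal vesicle RNA at a level that none of the 4 libraries of 24 weeks had. For Plau the difference of effects was 5.52 ± 0.54 (adjusted p = 0.00429), with 2.97 and 1.34 FPKM in TRAMP prostates of 16 weeks, against 57.2 FPKM in wild type prostate of 16 weeks. For H1fx it was 1.09 ± 0.16 (adjusted p = 0.0469), with 33.7 and 37.2 FPKM in TRAMP prostates of 16 weeks, against 14.0 FPKM in wild type prostate of 16 weeks. For Scgb2b27 it was -2.25 ± 0.27 (adjusted p = 0.0182), with 478 and 638 FPKM in TRAMP prostates of 16 weeks, against 22.1 FPKM in wild type prostate of 16 weeks. The part of the seminal vesicle RNA in these differences was not tested.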

How the results depend on the processing

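The count of 6014 called genes was 4200 to 4950 when 1 of the 4 libraries was left out and 4330 in a fit on those libraries alone. No called gene turned to a call in the opposite direction under the alternatives tried other than quantile normalization, where 3 did. Of 131 genes given with values, 115 kept their direction and call under the alternatives in which they were tested; the filter of 1 FPKM tested 128 of them. Signs near 0 turned for 3 genes that had not passed. Foxa1 was at 0.17 after quantile normalization, at 0.0715 when the scaling left out the 50 most abundant genes, and at -0.10 to 0.0247 when 1 library was left out. Krt8 was at 0.36, 0.0746 and -0.13 to 0.059 under the same alternatives. Mavs was at -0.0276 after quantile normalization, at -0.0833 after the GC correction, and at -0.0961 to 0.10 when 1 library was left out. Ribosomal proteins, lower in 15 of 24 genes, were lower in 1 after quantile normalization and in 5 in the fit on the 4 libraries. The number of genes whose TRAMP effect differed between the ages, 49, was 27 with a pseudocount of 0.1, 16 with a filter of 1 FPKM over the 4 libraries, 297 with no filter, and 34 to 82 when 1 library was left out, the most without TRAMP replicate 2. The cause was not tested. No paired analysis was possible because the TRAMP libraries are numbered 0 and 2 and the wild type libraries 0 and 1, and they share a single number. Depth in reads is unknown, so a gene listed at 0 may be present below detection, and 2 libraries per group limit every estimate.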

Other observations

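Genes of RNA processing and protein synthesis moved in part, beside 23.0% of all genes tested called higher and 22.0% lower. Of 21 genes of the spliceosome and the SR proteins, which join exons, 14 rose and 1 fell (median 0.37). Srsf7, an SR protein, had 51.6 and 54.4 FPKM in TRAMP prostates, against 33.2 and 26.3 FPKM in wild type prostates (log2 difference 0.82 ± 0.10, adjusted p = 5.02e-04). Of 20 ribosome biogenesis genes 6 rose and 1 fell (5 and 3 after the GC correction). Nop56, a core protein of the particles that methylate ribosomal RNA, had 49.3 and 49.3 FPKM in TRAMP prostates, against 29.7 and 29.2 FPKM in wild type prostates (log2 difference 0.73 ± 0.06, adjusted p = 7.71e-05). Ribosomal proteins fell in 15 of 24 genes (6 without wild type replicate 0, 7 without wild type replicate 1) with a median of -0.29, but their median was 0.02 after quantile normalization. Of 20 aminoacyl-tRNA synthetases, which charge transfer RNA, 2 rose, 3 fell and 15 did not pass (7 rose and 2 fell when the scaling left out the 50 most abundant genes, and 1 rose and 7 fell after the GC correction). Vars, the valine enzyme, had 182 and 155 FPKM in TRAMP prostates, against 84.6 and 70.3 FPKM in wild type prostates (log2 difference 1.11 ± 0.10, adjusted p = 1.15e-04), while the other 19 differed by -0.39 (Yars) to 0.23 (Gars) on the log2 scale. Among enzymes of serine, glycine and folate metabolism 4 of 14 rose and 5 fell (3 without TRAMP replicate 2 or wild type replicate 1). Psat1, a step of serine synthesis, had 13.2 and 17.8 FPKM in TRAMP prostates, against 4.50 and 4.02 FPKM in wild type prostates (log2 difference 1.64 ± 0.20, adjusted p = 4.30e-04). Gldc, which breaks glycine down in mitochondria, had 0.256 and 0.418 FPKM in TRAMP prostates, against 1.44 and 1.43 FPKM in wild type prostates (log2 difference -0.87 ± 0.13, adjusted p = 0.00127). Of 23 genes of citrate metabolism 2 rose and 8 fell (6 and 4 when the scaling left out those 50 genes, and 4 fell in the fit on the 4 libraries). Me1, malic enzyme, had 12.2 and 9.39 FPKM in TRAMP prostates, against 3.82 and 3.96 FPKM in wild type prostates (log2 difference 1.26 ± 0.16, adjusted p = 6.66e-04).

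Genes of epithelial signalling, adhesion and the germline changed singly. Shh, the hedgehog ligand of urogenital epithelium, had 0.117 and 0.26 FPKM in TRAMP prostates, against 2.22 and 1.44 FPKM in wild type prostates (log2 difference -1.24 ± 0.16, adjusted p = 6.33e-04). Upk1a, a membrane protein known from the urothelium, had 152 and 184 FPKM in TRAMP prostates, against 506 and 583 FPKM in wild type prostates (log2 difference -1.69 ± 0.21, adjusted p = 4.69e-04). Of 22 tight junction and desmosome genes 5 fell, near the background of 22.0%, and 2 rose (6 after quantile normalization, and 8 fell without TRAMP replicate 0). Pkp1, plakophilin 1 of desmosomes, had 0.348 and 0.426 FPKM in TRAMP prostates, against 3.91 and 2.45 FPKM in wild type prostates (log2 difference -1.57 ± 0.17, adjusted p = 2.40e-04). Cldn1, a claudin, had 0.328 and 0.814 FPKM in TRAMP prostates, against 3.09 and 2.11 FPKM in wild type prostates (log2 difference -1.20 ± 0.18, adjusted p = 0.00129). The basal markers given above were also lower in TRAMP prostates, and their part in these differences was not tested. Among 18 tested genes known from human prostate cancer 7 fell and 2 rose (4 fell when either TRAMP library was left out). Myc had 28.2 and 29.3 FPKM in TRAMP prostates, against 39.6 and 35.1 FPKM in wild type prostates (log2 difference -0.37 ± 0.09, adjusted p = 0.0112), a call lost without TRAMP replicate 0 or wild type replicate 0. Etv4, an ETS factor, had 0.107 and 0.409 FPKM in TRAMP prostates, against 1.63 and 1.31 FPKM in wild type prostates (log2 difference -0.98 ± 0.16, adjusted p = 0.00194). Of 4 germline genes that could be tested, of 20 listed, 1 rose and 1 fell. Dazl, an RNA-binding protein of germ cells, had 3.56 and 3.94 FPKM in TRAMP prostates, against 0.387 and 0.274 FPKM in wild type prostates (log2 difference 1.84 ± 0.14, adjusted p = 6.33e-05). Sycp3, of the synaptonemal complex of meiosis, had 2.54 and 2.23 FPKM in TRAMP prostates, against 5.07 and 4.06 FPKM in wild type prostates (log2 difference -0.71 ± 0.11, adjusted p = 0.00155). Glutathione transferases fell in 8 of 19 genes and rose in 2. Gstt1, of the theta class, was among the 2, with 125 and 138 FPKM in TRAMP prostates, against 69.8 and 55.3 FPKM in wild type prostates (log2 difference 1.07 ± 0.15, adjusted p = 8.67e-04).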
